A study of Homo sapiens with 6 samples.

Results

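The genes described here encode nuclear subunits of the mitochondrial respiratory chain and of ATP synthase, with a few enzymes that the same pathway map holds. They were taken as the rows of the deposited table that carry the KEGG oxidative phosphorylation pathway, without the ids starting with ATP6, which name the proton pump of lysosomes. The rule gave 88 of the 16279 genes in the table, from 111 genes of the pathway and 23 left out. By symbol prefix, 39 belonged to complex I (NDUF), 4 to complex II (SDH), 9 to complex III (UQCR), 16 to complex IV (COX) and 15 to ATP synthase, or complex V (ATP5). The other 5 have none of these prefixes: CYC1, which is cytochrome c1 of complex III, the inorganic pyrophosphatases PPA1 and PPA2, the phosphatase LHPP, and TCIRG1, a subunit of the lysosomal pump that the id filter did not catch. None of the 13 subunits encoded by mitochondrial DNA was analysed here, and neither were COX4I2, COX6A2, COX7A1 and COX8C.

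The libraries came from 12Z, an established line of human endometriotic epithelial cells, which was left untreated (Control, n = 3) or received 10 ng/mL rhChem157S for 48 h (n = 3). rhChem157S is recombinant human chemerin ending at serine 157, an active form of this adipokine. The labels call the libraries biological replicates, without saying whether they came from separate cultures, so that p-values measure the spread between these libraries, which may be technical. The series asks how chemerin alters the transcriptome of endometrial epithelial cells, and here that question is put to the genes of oxidative phosphorylation.

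The respiratory chain sits in the inner mitochondrial membrane. Complexes I and II pass electrons from NADH and succinate to ubiquinone, complex III passes them on to cytochrome c, and complex IV to oxygen. Complexes I, III and IV pump protons as they do so, and ATP synthase lets the protons flow back through its membrane ring to drive ATP synthesis in its F1 head. Most subunits are encoded in the nucleus and imported, and the transcription factors NRF1 and GABPA and coactivators of the PPARGC1A family are known to act on many of their genes.

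The count totals of the libraries ran from 35430881 to 38341643. The 88 genes took 0.666% to 0.679% of them in the Control libraries and 0.692%, 0.654% and 0.613% in rhChem157S replicates 1 to 3. The treated library of replicate 3 stood apart: the median absolute difference from the Control mean over all genes was 0.363 on the log2 scale there, against 0.17 and 0.201 in the other treated libraries, and its TMM factor, by which edgeR corrects a library's size for its composition, was 0.898 against 0.973 to 1.05 in the others. Of the epithelial markers, KRT8, KRT18 and KRT19 were above 277 FPKM and 5 of 7 above 1 FPKM in every library. KRT7 stood at 1.19 to 2.01 FPKM, and CDH1 and EPCAM stayed at or below 0.38 and 0.81 FPKM. All 6 stromal markers exceeded 1 FPKM. COL1A1 and COL3A1 had means of 1003.5 and 564 FPKM, beside 868 FPKM for KRT8. Stromal markers summed to 1543 to 2021 FPKM in the Control group and 1084 to 2144 FPKM in the rhChem157S group. The log2 fold changes of CDH1, EPCAM and MUC1 were -1.14, -1.46 and -0.57. Those of KRT8, KRT18, KRT19 and KRT7 were 0.29, 0.16, 0.27 and 0.083. Endothelial and adipocyte markers exceeded 1 FPKM in every library in 0 of 4 and 0 of 3 cases. Among the immune markers CD14 alone was above 1 FPKM throughout, and the summed immune markers ran from 37.0 to 51.7 FPKM in the Control group and from 6.73 to 21.3 FPKM in the rhChem157S group. What these marker differences contribute to the results below was not tested.

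As mRNA levels, the 88 genes spanned a wide range. FPKM, the read count scaled by gene length and library total, allows genes to be compared, and the median gene stood at 41.9 FPKM. ATP5F1B, the catalytic beta subunit of the F1 head, was the highest at a mean of 309 FPKM over the 6 libraries, with 290 FPKM in the lowest library and 338 FPKM in the highest. NDUFS5, an accessory subunit of complex I, came next at 259 FPKM, and its highest library reached 276 FPKM, so that the 2 genes did not overlap. The complex IV subunits COX6A1, COX8A and COX6B1 followed at 241, 223 and 193 FPKM. Their ranges overlapped with their neighbours in this order: COX6A1 from 224 to 253 FPKM, COX8A from 203 to 247 FPKM and COX6B1 from 173 to 205 FPKM. At the low end were NDUFA4L2 at 0.536 FPKM, a paralog of NDUFA4 known for its induction in hypoxia, and COX6B2 at 2.43 FPKM, the testis-type counterpart of COX6B1. LHPP and NDUFC2 followed at 3.11 and 3.16 FPKM. The gene length behind these values ran from 303 bases for ATP5ME to 11774 bases for NDUFS1, and a level per length depends on that gene model.

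**Figure D1:**
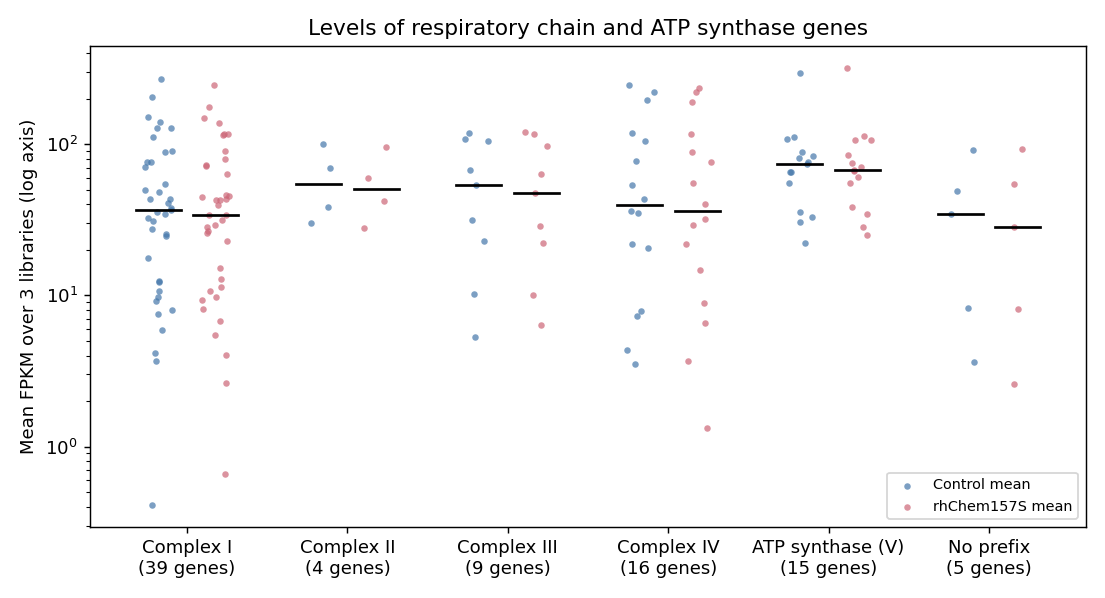
Mean FPKM over 3 libraries (log axis) of each of the 88 genes in the Control and rhChem157S groups, by complex, with 1 point per gene and the median of each group as a black line. The genes of complex V have the highest median, and the lowest point of complex I is NDUFA4L2 at a mean of 0.536 FPKM over all 6 libraries.

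No member passed the test between rhChem157S and Control. All 88 genes passed the filter on low counts, and 0 of 88 had an adjusted p under 0.05 with edgeR's quasi-likelihood test (Benjamini-Hochberg over 13311 genes), where 4 genes or 0.0301% of all genes tested did. At an unadjusted p under 0.05, 11 genes were higher in the rhChem157S group and 2 were lower, which is 12.5% and 2.27% of the 88, against 11.4% of all genes in each direction. With DESeq2, the tool of the study, 2 of the 88 were higher at an adjusted p under 0.05 and 0 lower, against 3.90% and 5.47% of all 14066 genes with an adjusted p. Leaving out rhChem157S replicate 3 gave 1 member at an adjusted p under 0.05 with edgeR, against 3.07% of all genes, and leaving out rhChem157S replicate 1 gave 0 of 88, against 6.24% of all genes. In bulk RNA, less mRNA per cell and fewer cells that hold it cannot be told apart.

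The log2 fold changes of the 88 genes were small. Their median was 0.072, with quartiles of -0.028 and 0.17, and 61 of the 88 (69.3%) were above 0, against a median of 0.012 and 51.7% above 0 over all genes tested. The median absolute log2 fold change was 0.119 in the 88 genes and 0.209 over all genes. COX6B2 and NDUFA4L2, the lowest members by FPKM, were the 2 of 88 beyond 0.5 in either direction, against 19.4% of all genes. The 95% confidence interval lay within -0.5 and 0.5 for 71 of the 88 and within -1 and 1 for 84. The values of all genes varied with abundance. With the genes in 10 groups of equal size by mean log2 CPM, the median of all genes ran from -0.51 in the lowest group to 0.17 in the highest. In the upper 6 groups, which hold 77 of the 88, the median log2 fold change over all 7986 genes was 0.070, the median absolute value was 0.168 against 0.106 for the 77, and 8.44% of all genes against 0 of the 77 were beyond 0.5.

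**Figure D2:**
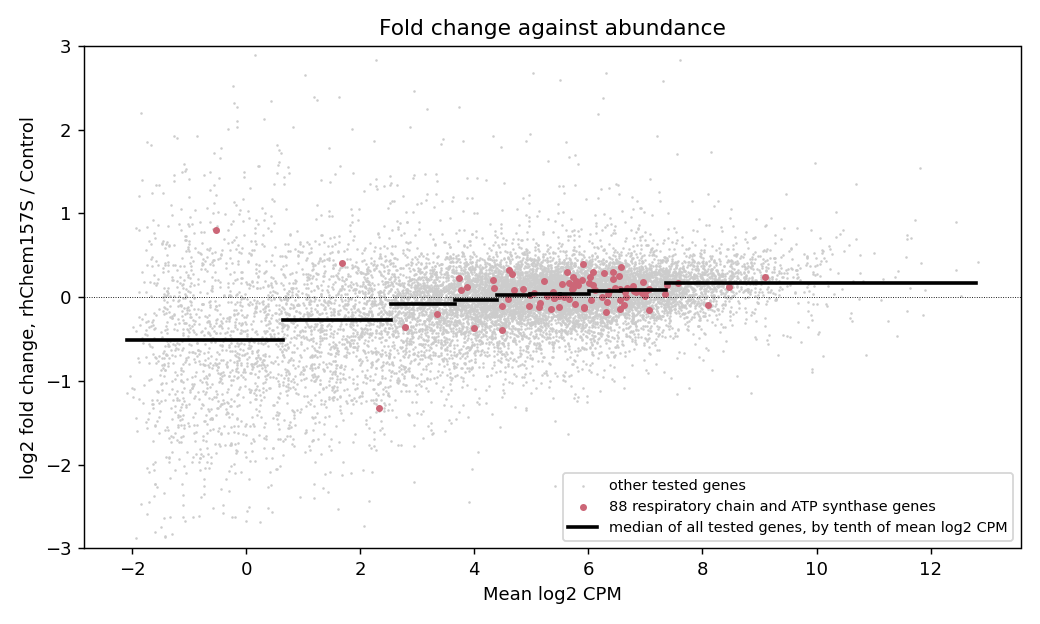
edgeR log2 fold change (rhChem157S over Control) against mean log2 CPM for the 88 genes (red) and all other tested genes (grey), with the median of all tested genes in each of 10 groups by mean log2 CPM as black lines. 25 other genes lie beyond the plotted range of the vertical axis, and the red points stay near 0 except for the low genes COX6B2 and NDUFA4L2.

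Counting genes whose 3 treated libraries all lay above or all below the 3 Control libraries in TMM-scaled CPM, 25 of the 88 (28.4%) were higher, against 16.5% of all genes, and 5 (5.68%) were lower, against 16.0%. In the upper 6 of the 10 abundance groups the shares over all genes were 23.2% higher and 11.6% lower. This count turned with the scaling. With library size alone, which is also the scale of the FPKM, 6 of the 88 were higher and 15 lower, against 7.35% and 25.2% of all genes, the median log2 fold change of the 88 was -0.057 and that of all genes -0.12. The 6 genes above the Control range on both scales were ATP5PD, ATP5PB, ATP5F1E, ATP5F1B, NDUFA9 and UQCRH, so that 4 of the 6 encode ATP synthase. Groups overlap less often when a library is left out. Without rhChem157S replicate 1, 28 of the 88 were higher and 18 lower, against 24.6% and 25.4% of all genes, and without Control replicate 3, 27 were higher and 11 lower, against 21.6% and 21.3%.

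**Figure D3:**
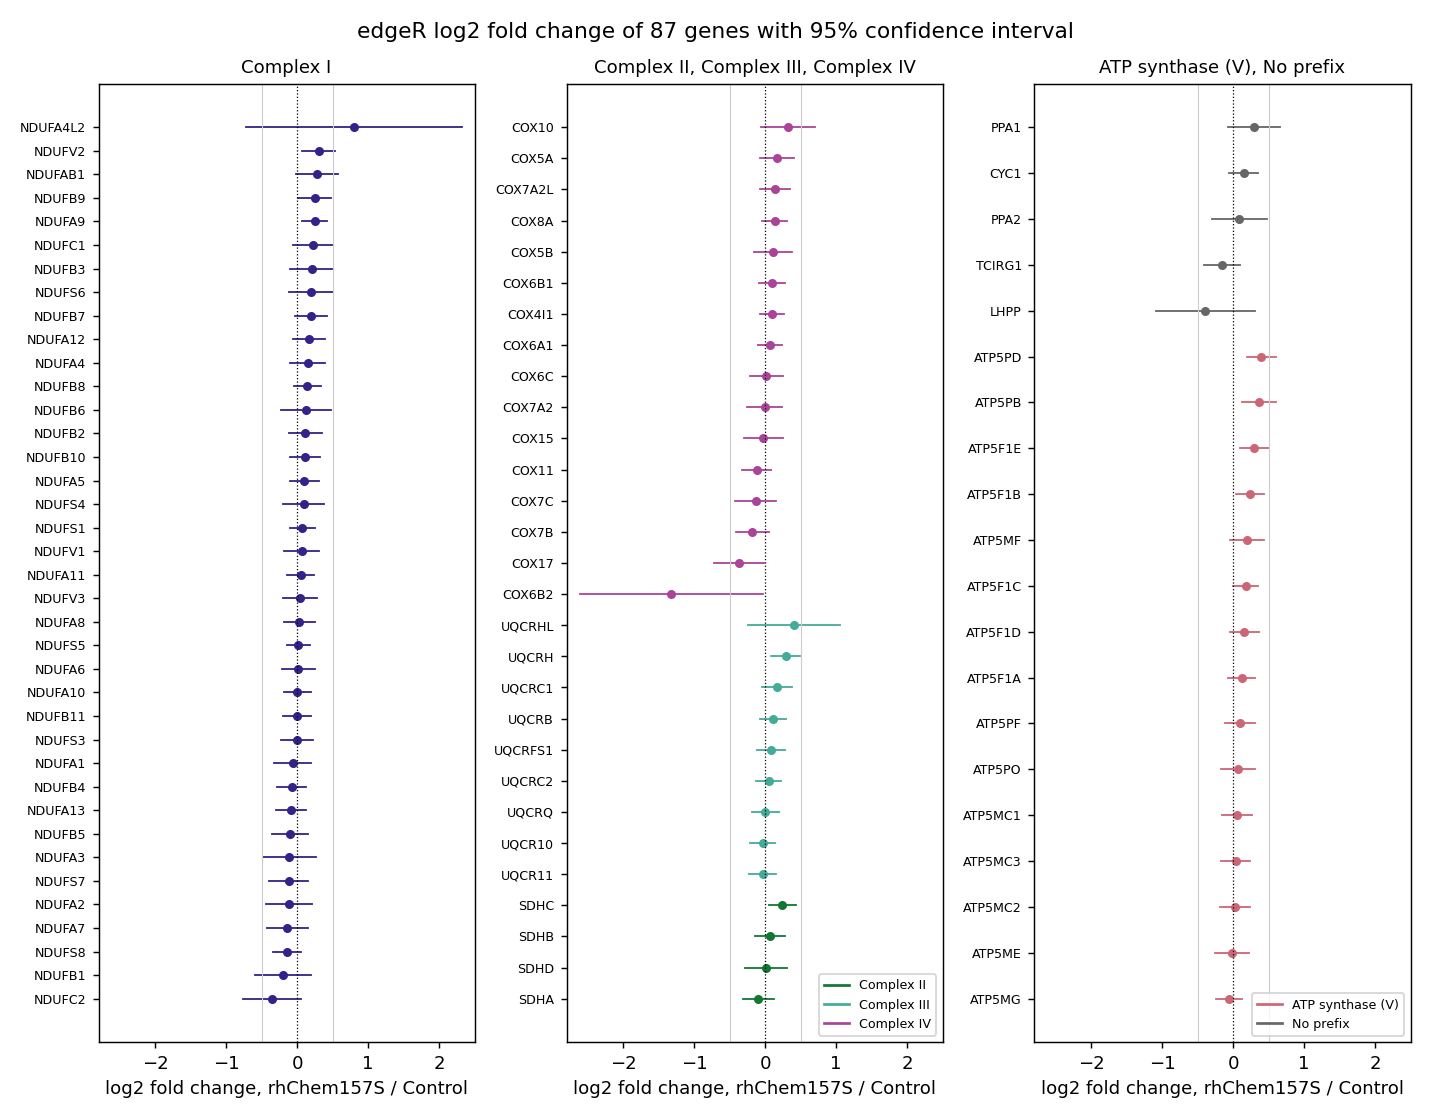
edgeR log2 fold change of 87 of the 88 genes, each with its 95% confidence interval, by complex; grey lines mark -0.5 and 0.5. The points of 13 of the 15 ATP synthase genes lie to the right of 0, among them all 5 subunits of the F1 head, ATP5PD and ATP5PB. Within the F1 head the intervals of ATP5F1A and ATP5F1D cross 0. The widest intervals belong to NDUFA4L2 and COX6B2.

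The promoters of the genes were searched because NRF1 and GABPA are known regulators of this group. In the RefSeq windows on GRCh38.p14, 72 of the 88 had a promoter, and the 250 bases before the start were searched on both strands. The NRF1 motif GCGCATGCG was in 10 of the 72 (13.9%), against 3.14% of the 10873 promoters of tested genes and 1.78% of all 27305. The ETS motif CCGGAAGT, which GABPA binds, was in 11 (15.3%), against 6.96% and 3.64%, and the YY1 motif AAGATGGCG in 1 (1.39%), against 1.03% and 0.641%. No matches of different motifs overlapped. The median log2 fold change was 0.019 in members with the NRF1 motif and 0.070 in the other members with a promoter, and 0.072 with and 0.063 without the ETS motif. The windows of 3 genes above and 2 below the Control range are shown, read along the gene's strand, with capitals marking a motif match. In ATP5PD and UQCRH the ETS motif is on the opposite strand, 102 and 47 bases before the start. COX17 holds the NRF1 motif on both strands, in overlapping matches that form a palindrome, and the windows of NDUFA9 and COX6B2 hold none of the 3 motifs. Neither do those of ATP5PB and ATP5F1E.
ATP5PD promoter, chr17:75046970-75047219, minus strand: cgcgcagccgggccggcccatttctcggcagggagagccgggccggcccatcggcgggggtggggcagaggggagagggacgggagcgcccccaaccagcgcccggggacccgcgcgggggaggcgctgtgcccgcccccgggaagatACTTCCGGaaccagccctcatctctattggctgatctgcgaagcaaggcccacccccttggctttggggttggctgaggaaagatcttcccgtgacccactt
UQCRH promoter, chr1:46303448-46303697, plus strand: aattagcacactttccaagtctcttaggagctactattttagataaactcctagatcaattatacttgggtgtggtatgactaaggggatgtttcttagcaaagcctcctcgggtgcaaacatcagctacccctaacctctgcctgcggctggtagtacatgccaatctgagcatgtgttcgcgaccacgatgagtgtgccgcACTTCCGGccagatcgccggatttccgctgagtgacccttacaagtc
NDUFA9 promoter, chr12:4648864-4649113, plus strand: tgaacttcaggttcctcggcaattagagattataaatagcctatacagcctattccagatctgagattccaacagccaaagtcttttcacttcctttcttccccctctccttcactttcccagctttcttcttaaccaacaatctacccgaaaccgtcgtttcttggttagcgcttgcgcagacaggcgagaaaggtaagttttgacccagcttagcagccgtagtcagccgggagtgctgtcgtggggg
COX17 promoter, chr3:119677407-119677656, minus strand: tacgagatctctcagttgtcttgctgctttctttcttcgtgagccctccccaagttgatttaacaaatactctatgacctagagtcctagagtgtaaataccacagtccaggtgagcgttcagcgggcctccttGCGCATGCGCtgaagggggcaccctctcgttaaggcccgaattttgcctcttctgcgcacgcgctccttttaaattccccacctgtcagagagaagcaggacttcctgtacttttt
COX6B2 promoter, chr19:55354720-55354969, minus strand: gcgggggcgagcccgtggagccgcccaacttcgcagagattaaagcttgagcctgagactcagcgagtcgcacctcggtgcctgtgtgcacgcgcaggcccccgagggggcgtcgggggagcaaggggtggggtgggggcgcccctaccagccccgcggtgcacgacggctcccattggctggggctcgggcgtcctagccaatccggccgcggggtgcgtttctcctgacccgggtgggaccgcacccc

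For complex I, the entry point of electrons from NADH, the log2 fold changes of the 39 genes had a median of 0.061. In TMM-scaled CPM 11 of the 39 lay above the Control range and 2 below it. Of all genes 16.5% lay above and 16.0% below, or 23.2% and 11.6% in the upper 6 abundance groups. With edgeR, 4 of the 39 were higher and 0 lower at an unadjusted p under 0.05, against 11.4% of all genes in each direction. NDUFA9, an accessory subunit, had the smallest p. Its Control libraries held 59.1, 61.2 and 59.3 CPM and its treated libraries 72.0, 69.1 and 72.0 CPM. In CPM the groups were separated by more than their spread. In FPKM they only just failed to overlap, at 7.33 to 7.73 FPKM in the Control group and 7.73 to 8.61 FPKM in the rhChem157S group. The log2 fold change was 0.25 (SE 0.076, edgeR adjusted p = 0.137). NDUFA9 lies at chr12:4649095-4694317 and shares 1709 exon bases with other annotated genes on its strand, so that its reads may be split.

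NDUFV2 is a core subunit of the NADH-oxidising module. It held 39.4, 44.6 and 48.5 CPM in Control replicates 1 to 3 and 52.8, 55.3 and 55.2 CPM in the treated libraries (log2 fold change 0.30, SE 0.10, edgeR adjusted p = 0.154). The groups did not overlap in CPM and overlapped in FPKM. The core subunits NDUFS1, NDUFV1 and NDUFS7 had log2 fold changes of 0.072, 0.061 and -0.12, each with libraries that overlapped. Over all 7 nuclear core subunits the median was 0.061, and over the 30 accessory subunits 0.045.

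NDUFC2, an accessory subunit at the membrane arm, was singled out after its values were seen because it had the lowest log2 fold change of the complex. It held 8.11, 6.99 and 7.85 CPM in the Control libraries and 6.18, 5.16 and 6.58 CPM in the treated ones. The groups did not overlap on either scale, but the log2 fold change of -0.36 (SE 0.18, edgeR adjusted p = 0.270) had an interval from -0.77 to 0.056. The gene shares 431 exon bases with the readthrough gene NDUFC2-KCTD14.

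The isoform pair NDUFA4 and NDUFA4L2 carries the NDUF prefix, although NDUFA4 is known as a subunit of complex IV. NDUFA4 ran from 44.6 to 53.6 CPM in the Control group and from 51.0 to 58.9 CPM in the rhChem157S group, with overlap (log2 fold change 0.14). NDUFA4L2 had 12, 17 and 24 reads in Control replicates 1 to 3, against 55, 9 and 25 reads after rhChem157S. Its log2 fold change of 0.80 (SE 0.65) rested on rhChem157S replicate 1, and was 0.081 without that library.

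Complex II, which oxidises succinate and is also an enzyme of the citric acid cycle, is encoded wholly in the nucleus, and the median over its 4 genes was 0.035 on the log2 scale. SDHC, a membrane anchor, held 48.9, 47.6 and 48.8 CPM in the Control libraries and 60.3, 55.7 and 55.6 CPM in the treated libraries. All treated values were above all Control values in CPM, while in FPKM the groups overlapped, and the log2 fold change was 0.24 (SE 0.082, edgeR adjusted p = 0.158). The other anchor, SDHD, and the iron-sulphur subunit SDHB had log2 fold changes of 0.0064 (SE 0.13) and 0.063 (SE 0.089), with overlapping libraries. The flavoprotein SDHA held 284, 283 and 278 CPM against 285, 273 and 234 CPM, a log2 fold change of -0.095 (SE 0.095). Its groups overlapped in CPM, with rhChem157S replicate 3 the lowest, while in FPKM all treated libraries were below the Control range. The 95% intervals of the 4 genes reached from -0.32 to 0.43.

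Complex III had a median of 0.083 on the log2 scale over its 9 genes, and 2 of the 9 lay above and 0 below the Control range in CPM. Of all genes 16.5% lay above and 16.0% below it, or 23.2% and 11.6% in the upper 6 abundance groups. UQCRH, the hinge protein next to cytochrome c1, held 69.3, 67.7 and 71.0 CPM in the Control libraries. Its treated libraries held 76.7, 89.4 and 87.5 CPM, all above the Control values, with a log2 fold change of 0.29 (SE 0.089, edgeR adjusted p = 0.137). UQCRH shares nearly all of its sequence with the copy UQCRHL, whose reads cannot be assigned with certainty, and UQCRHL had 81 to 115 reads in the Control group, against 105 to 150 reads after rhChem157S (log2 fold change 0.40, SE 0.28, and 0.21 without rhChem157S replicate 3). UQCRC1, a core protein on the matrix side, ran from 173 to 185 CPM in the Control group and from 187 to 222 CPM in the rhChem157S group (log2 fold change 0.17, SE 0.090). Its groups overlapped in FPKM, and its log2 fold change was 0.098 without rhChem157S replicate 3. The catalytic subunits overlapped between the groups: the Rieske protein UQCRFS1 at a log2 fold change of 0.083 (SE 0.085) and cytochrome c1, CYC1, at 0.15 (SE 0.087), which were 0.032 and 0.083 without rhChem157S replicate 3.

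**Figure D4:**
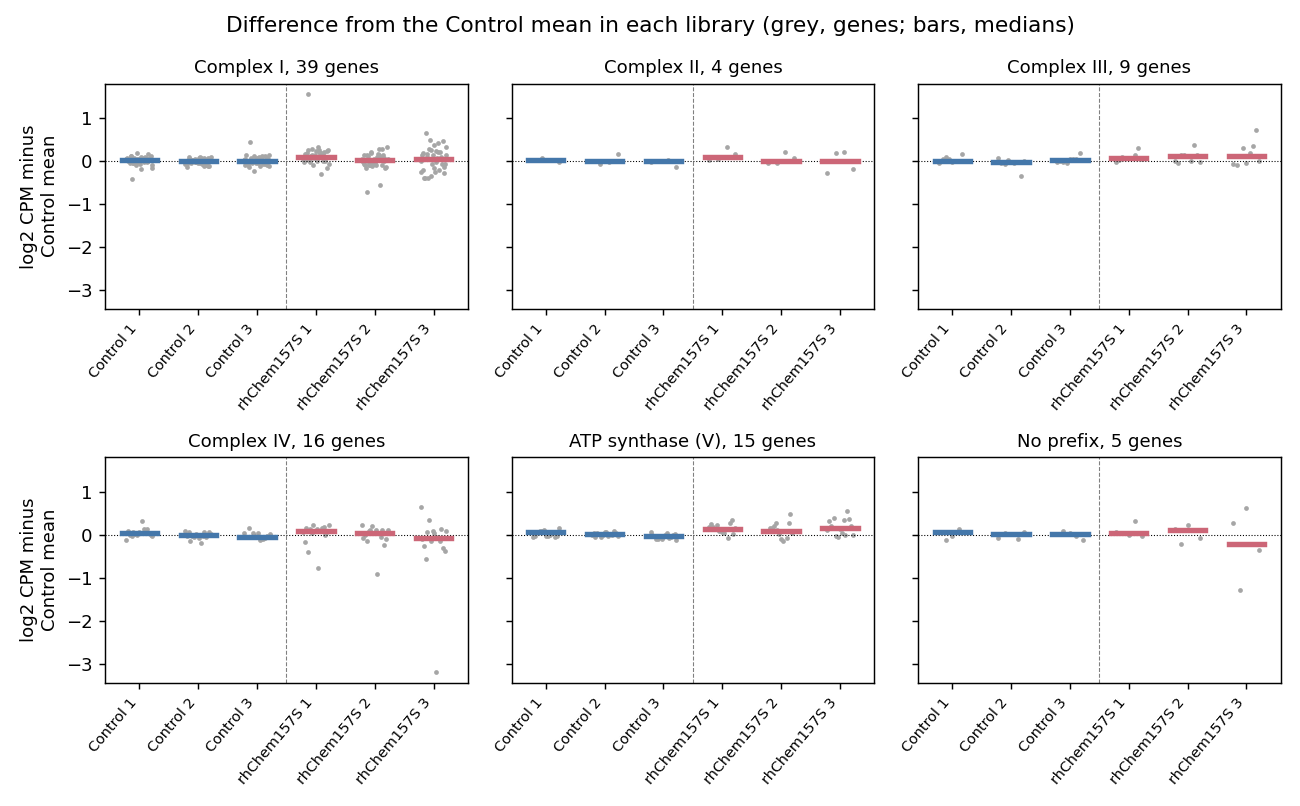
log2 CPM minus the mean of the 3 Control libraries in each of the 6 libraries, in a panel for each complex, with 1 grey point per gene and the median as a coloured bar (blue, Control; red, rhChem157S). The medians of the ATP synthase genes lie at 0.13, 0.090 and 0.15 in the treated libraries and at 0.063, 0.011 and -0.026 in the Control libraries, and the lowest grey point of complex IV is COX6B2 in rhChem157S replicate 3.

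Complex IV, which reduces oxygen, gave the most divided values. The log2 fold changes of its 16 genes had a median of 0.044, and 9 were above and 7 below 0, against 51.7% of all genes above 0. In CPM 3 of the 16 lay above and 3 below the Control range, against 16.5% and 16.0% of all genes. COX17, the copper chaperone that supplies the enzyme, held 17.6, 16.3 and 20.0 CPM in the Control libraries. The treated libraries held 13.6, 16.2 and 12.0 CPM, so that rhChem157S replicate 2 lay just under the lowest Control library. The log2 fold change was -0.37 (SE 0.15, interval -0.72 to -0.010, edgeR adjusted p = 0.211). COX17 shares 383 exon bases with POPDC2 on its strand.

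COX6B2 had the largest log2 fold change of the 88 genes, at a low level. It held 8.82, 6.12 and 6.39 CPM in the Control libraries and 4.10, 3.68 and 0.715 CPM in the treated libraries, or 237 to 324 reads against 157, 130 and 24. All 3 treated libraries were below the Control range, and replicate 3 lay far below the other 2. The log2 fold change was -1.32 (SE 0.55, edgeR adjusted p = 0.213) and -0.87 without rhChem157S replicate 3. The gene shares 1178 of its 3815 exon bases with AC020922.1 on the same strand. Its ubiquitous counterpart COX6B1 ran from 86.2 to 94.0 CPM in the Control group and from 94.1 to 99.9 CPM in the rhChem157S group, a log2 fold change of 0.095 (SE 0.078).

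The other 10 subunits of complex IV had log2 fold changes from -0.18 (COX7B) to 0.17 (COX5A), both named after their values were seen. COX5A lay above the Control range in CPM and not in FPKM, and COX7B overlapped in CPM and lay below the Control range in FPKM. COX4I1 and COX5B, which sit next to the catalytic core, had log2 fold changes of 0.094 (SE 0.074) and 0.10 (SE 0.11), and the libraries of the groups overlapped. COX6A1 and COX7A2, the isoforms found outside muscle, stood at 0.071 and -0.0091, and COX7A2L, known for its part in joining complexes III and IV, at 0.14. COX8A held 103, 105 and 106 CPM in the Control libraries and 122, 112 and 112 CPM in the treated ones. Its groups were apart in CPM and overlapped in FPKM (log2 fold change 0.14, SE 0.075). COX10, which makes the heme A precursor, ran from 19.8 to 23.2 CPM in the Control group and from 22.6 to 33.7 CPM in the rhChem157S group, and its log2 fold change of 0.32 (SE 0.16) was 0.13 without rhChem157S replicate 3. Together the 4 genes for heme and copper delivery, COX10, COX11, COX15 and COX17, had a median of -0.072. Of these 2 lay below the Control range in CPM, against 16.0% of all genes, and COX11 and COX15 were added after their values were seen.

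ATP synthase had the highest median of the 5 complexes, 0.12 over 15 genes, with 13 above 0, and 8 lay above and 0 below the Control range in CPM, where 16.5% of all genes lay above it and 23.2% in the upper abundance groups. In FPKM 4 of the 8 did, ATP5PD, ATP5PB, ATP5F1E and ATP5F1B. After cyclic loess complex III had the higher median, 0.037 against 0.035. ATP5PD, subunit d of the peripheral stalk that holds the F1 head in place, had the smallest p of the 88 genes. It stood at 49.7, 54.7 and 51.4 CPM in Control replicates 1 to 3 and at 65.5, 72.5 and 67.1 CPM in rhChem157S replicates 1 to 3. The lowest treated value exceeded the highest Control value, in FPKM as well, and no treated library stood apart. The log2 fold change was 0.40 (SE 0.087, interval 0.19 to 0.60), with an unadjusted p of 0.0023 and an adjusted p of 0.0912 with edgeR. DESeq2 gave an adjusted p of 0.00632. With 1 library left out, the edgeR adjusted p ran from 0.0474 (without rhChem157S replicate 3) to 0.359 (without Control replicate 2). The gene lies at chr17:75038863-75046985 on the minus strand and shares 616 exon bases with genes on the other strand, KCTD2 among them, whose log2 fold change was 0.23 (SE 0.090, edgeR adjusted p = 0.201). Whether the counting used strand is not given in the sources used here.

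ATP5PB, subunit b of the same stalk, held 87.0, 81.7 and 79.7 CPM in the Control libraries and 99.6, 99.6 and 121 CPM in the treated ones. The groups were apart on both scales and rhChem157S replicate 3 was the highest. Its log2 fold change was 0.37 (SE 0.10, edgeR adjusted p = 0.123, DESeq2 adjusted p = 0.0454), and 0.26 without that library. ATP5PB overlaps WDR77 on the other strand by 350 exon bases, and WDR77 had a log2 fold change of 0.36 (SE 0.29). Over the 4 stalk genes the median was 0.23. The remaining pair, ATP5PF and ATP5PO, stood at 0.092 and 0.067 with overlapping libraries.

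In the F1 head, where ADP and phosphate become ATP, all 5 subunits lay above the Control range in CPM, and the median log2 fold change was 0.17. Of all genes 16.5% lay above it, and 23.2% in the upper 6 abundance groups. The median over all genes was 0.070 in these 6 groups and 0.17 in the highest, which holds ATP5F1A and ATP5F1B. ATP5F1E, the epsilon subunit, held 81.4, 78.1 and 71.9 CPM against 90.1, 93.2 and 101 CPM (log2 fold change 0.30, SE 0.088, edgeR adjusted p = 0.132). The catalytic subunit ATP5F1B held 493, 513 and 497 CPM against 595, 559 and 620 CPM (log2 fold change 0.24, SE 0.084, edgeR adjusted p = 0.164). Both were apart on either scale. For the other 3 the separation held in CPM and not in FPKM: the log2 fold changes were 0.17 for ATP5F1C, the gamma subunit, 0.16 for ATP5F1D, the delta subunit, and 0.12 for ATP5F1A, the alpha subunit. ATP5F1A stood at -0.0080 with library size alone. ATP5F1E shares 1188 exon bases with TUBB1 on the other strand, a gene too low to be tested.

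The membrane ring through which protons pass is made of one protein that 3 genes encode. ATP5MC1, ATP5MC2 and ATP5MC3 had log2 fold changes of 0.058, 0.031 and 0.033, with SEs of 0.090 to 0.091, and libraries that overlapped. The 3 small membrane subunits ATP5ME, ATP5MF and ATP5MG had log2 fold changes of -0.020, 0.19 and -0.056, with a median of -0.020. ATP5MF lay above the Control range in CPM and overlapped in FPKM. No test compared the F1 head with the ring, and their confidence intervals overlapped: 0.044 to 0.44 for ATP5F1B and -0.15 to 0.27 for ATP5MC1.

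**Figure D5:**
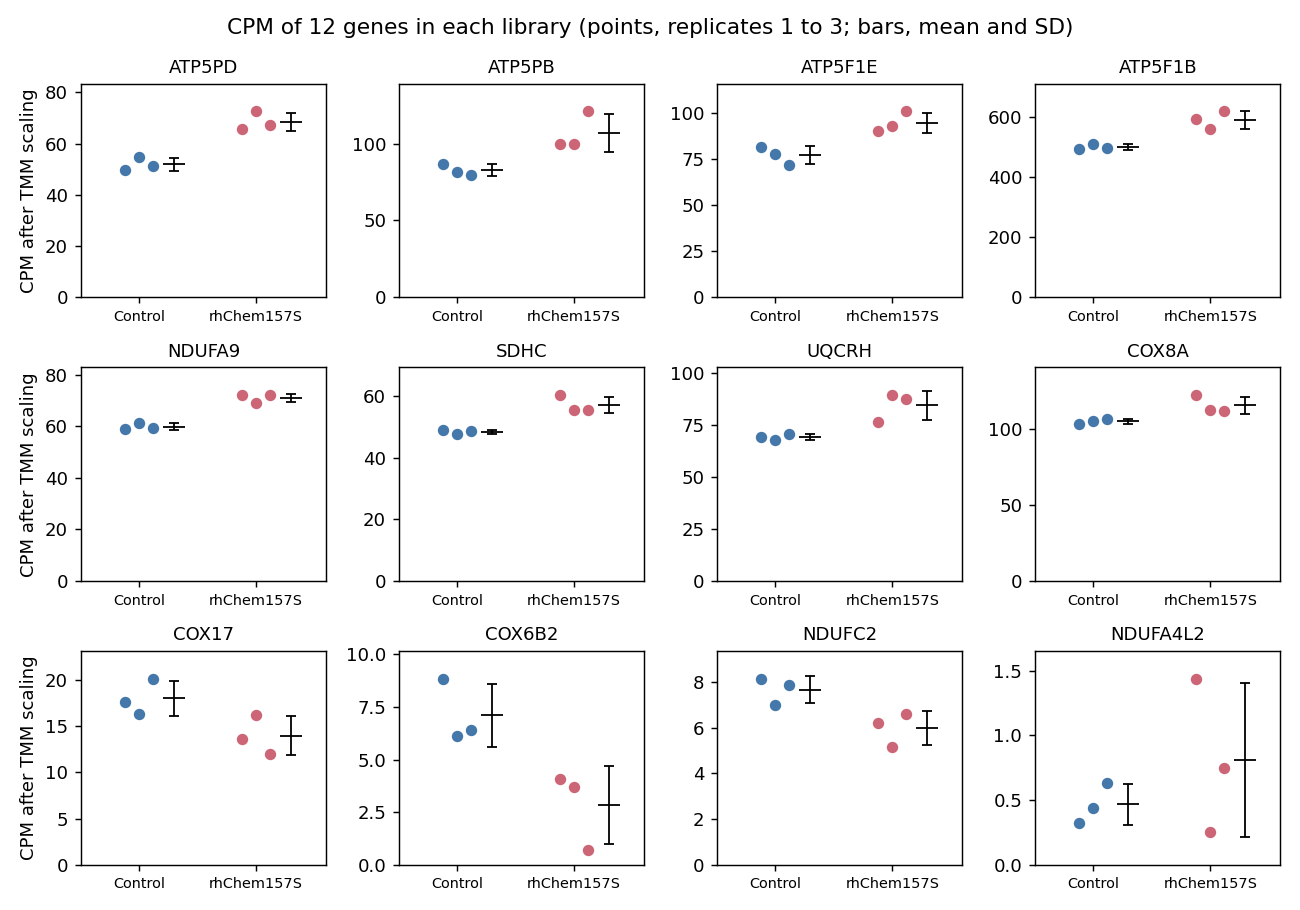
TMM-scaled CPM of 12 genes in each library, with points for replicates 1 to 3 in order and the mean and SD beside them; each panel has its own vertical axis from 0. The ATP synthase genes ATP5PD, ATP5PB, ATP5F1E and ATP5F1B show no overlap between groups, and rhChem157S replicate 3 is the lowest point of COX6B2 at 0.715 CPM.

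The levels per length were also summed over the genes of each complex. Complex I summed to 2232, 2178 and 2206 FPKM in the Control libraries and 2216, 2064 and 1954 FPKM in the treated libraries. Complex IV summed to 1215, 1198 and 1187 FPKM against 1246, 1159 and 1036 FPKM, and ATP synthase to 1242, 1249 and 1202 FPKM against 1316, 1248 and 1206 FPKM. In each of these sums rhChem157S replicate 1 was the highest and replicate 3 the lowest of the treated libraries, and the groups overlapped. The ratio of treated to Control means was 0.942 for complex I, 0.943 for II, 0.985 for III, 0.956 for IV and 1.02 for ATP synthase in FPKM. In TMM-scaled CPM it was 1.04, 0.990, 1.07, 1.03 and 1.12. ATP synthase had the highest ratio on both scales, and complexes I, III and IV changed sides of 1 between them.

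Among the 5 genes without a prefix, none lay outside the Control range in all 3 treated libraries. PPA1, which splits pyrophosphate in the cytosol, held 59.6, 61.1 and 62.2 CPM in the Control libraries and 60.3, 70.7 and 93.5 CPM in the treated ones. Its log2 fold change of 0.30 (SE 0.16) was 0.10 without rhChem157S replicate 3.

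Genes that serve the same machinery were described from lists of known function, and their counts at an unadjusted p under 0.05 stand against 11.4% of all genes in each direction. Of 46 assembly factors tested, 0 had an adjusted p under 0.05 with edgeR, 2 were higher and 2 lower at an unadjusted p under 0.05, and the median log2 fold change was 0.045. TMEM126B, an assembly factor of complex I, held 16.0, 16.3 and 14.6 CPM in the Control libraries and 20.3, 20.2 and 19.3 CPM in the treated ones (log2 fold change 0.35, SE 0.11, edgeR adjusted p = 0.135). COX20 and COX18, which handle the COX2 subunit of complex IV, had log2 fold changes of 0.80 (SE 0.26) and -0.52 (SE 0.18). COX20 ran from 10.2 to 10.4 CPM in the Control group and stood at 13.4, 14.4 and 26.0 CPM in the treated libraries. Its log2 fold change was 0.43 without rhChem157S replicate 3. The adjusted p of COX20 was 0.144 with edgeR and 0.0387 with DESeq2.

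Of 11 tested carriers and partners of ATP synthase and cytochrome c, 1 was higher and 2 lower at an unadjusted p under 0.05. The heart and muscle form of the ADP/ATP carrier, SLC25A4, held 19.2, 16.5 and 22.1 CPM in the Control libraries. It held 11.9, 11.1 and 9.29 CPM in the treated libraries, all below the Control range, with a log2 fold change of -0.84 (SE 0.16). The edgeR adjusted p was 0.0752, with a range of 0.0411 (without rhChem157S replicate 1) to 0.359 (without Control replicate 2) when 1 library was left out, while DESeq2 gave an adjusted p of 0.000381. VDAC1, the outer membrane channel, ran from 192 to 213 CPM in the Control group and from 215 to 302 CPM in the rhChem157S group (log2 fold change 0.38, SE 0.13, edgeR adjusted p = 0.162), and its groups overlapped in FPKM. Its log2 fold change was 0.25 without rhChem157S replicate 3, and without rhChem157S replicate 1 it was 0.49 with an edgeR adjusted p of 0.0474. ATP5IF1, the inhibitor of ATP hydrolysis by ATP synthase, ran from 83.5 to 96.7 CPM in the Control group and from 73.3 to 78.3 CPM in the rhChem157S group (log2 fold change -0.23, SE 0.090, edgeR adjusted p = 0.186). SLC25A4 and ATP5IF1 were below the Control range in every treated library, and VDAC1 was above it in CPM. Another ADP/ATP carrier, SLC25A5, stood at a mean of 239 FPKM, against 3.45 FPKM for SLC25A4. The log2 fold change of SLC25A5 was 0.16 (SE 0.095), with groups that were apart in CPM and overlapped in FPKM.

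Over the 14 tested genes that maintain and express mitochondrial DNA, the median on the log2 scale was 0.20, and 4 were higher and 0 lower at an unadjusted p under 0.05. Their median difference from the Control mean was 0.10, 0.13 and 0.46 in rhChem157S replicates 1 to 3, so that replicate 3 was the highest. TFAM, which packages mitochondrial DNA and starts its transcription, held 41.0 to 47.5 CPM against 53.7, 49.0 and 67.7 CPM (log2 fold change 0.36, SE 0.14, edgeR adjusted p = 0.183), and without rhChem157S replicate 3 the log2 fold change was 0.21. SLIRP, which stabilises mitochondrial mRNA, had a log2 fold change of 0.46 (SE 0.15), and TFB1M, which methylates mitochondrial ribosomal RNA, 0.38 (SE 0.14). Neither overlapped between the groups.

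Among 10 nuclear regulators of respiratory genes, 2 were higher (NRF1 and MYC) and 2 lower (ESRRA and PPARGC1A) at an unadjusted p under 0.05. ESRRA, an orphan nuclear receptor that acts on respiratory genes, held 19.3, 19.9 and 22.3 CPM in the Control libraries and 13.96, 14.03 and 16.65 CPM in the treated libraries (log2 fold change -0.46, SE 0.13, edgeR adjusted p = 0.119, DESeq2 adjusted p = 0.0291). NRF1 ran from 16.6 to 20.2 CPM in the Control group and from 23.1 to 27.2 CPM in the rhChem157S group (log2 fold change 0.38, SE 0.13, edgeR adjusted p = 0.156). MYC stood at 110, 145 and 218 CPM in the treated libraries against 88.8 to 110 CPM in the Control group. Its log2 fold change of 0.63 (SE 0.23) was 0.32 without rhChem157S replicate 3. Without rhChem157S replicate 1 it was 0.82, with an edgeR adjusted p of 0.0455. PPARGC1A, the coactivator, and GABPA are named here because they are known regulators of these genes, after their values were seen. PPARGC1A had 91, 73 and 72 reads in Control replicates 1 to 3, against 47, 26 and 7 reads after rhChem157S, with the lowest count in replicate 3. Its log2 fold change was -1.52 (SE 0.57, edgeR adjusted p = 0.182) at a mean level of 0.130 FPKM. GABPA had a log2 fold change of 0.12 (SE 0.11), with overlapping libraries. The 14 tested enzymes of the citric acid cycle, without complex II, had a median of 0.13, and 2 passed an unadjusted p of 0.05, both higher: DLST, of the 2-oxoglutarate dehydrogenase, at 0.24 (SE 0.079) and IDH3G, of the NAD-dependent isocitrate dehydrogenase, at 0.24 (SE 0.092). The third by p, IDH3B of the same enzyme, stood at 0.17 (SE 0.077). None of the genes in these lists had an adjusted p under 0.05 with edgeR on all 6 libraries.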

How the data were processed

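RNA was sequenced from 12Z cells, 3 Control and 3 rhChem157S libraries. The authors trimmed reads with fastp, aligned them to GRCh38.p13 with HISAT2 and deposited whole read counts per gene from HTSeq-count, without normalization. They also deposited FPKM of the same 16279 genes, each of which equalled the count divided by the library total and by a length that was constant within 1 percent over libraries. The strand setting and the handling of reads that map to several places are not given in the sources used here, and 47 of the 88 genes have pseudogenes named after them (161 in all). Exons of 27 genes overlap other genes on the same strand and those of 35 genes on the opposite strand in GENCODE release 29, from which gene coordinates on GRCh38 were taken. Sequences are RefSeq windows.

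The test on counts was run with edgeR 4.0.16 in R 4.3.3 (TMM, filterByExpr with the group, quasi-likelihood test, Benjamini-Hochberg adjustment over 13311 genes, threshold 0.05). CPM are TMM-scaled. The log2 CPM behind differences from the Control mean used a prior count of 2. Library totals ran from 35430881 to 38341643 counts, counting error weighs most on the lowest genes, and intervals cover the spread between libraries. With 3 libraries in each group, exact two-sided permutation cannot give a p below 0.10, and none was used. Other settings tried were limma 3.58.1 on log2(FPKM + 1), on log2(FPKM + 0.1) and on log2 CPM after cyclic loess, DESeq2 1.42.0, 3 other scalings, no filter, a replicate block, and each library left out. Leaving out libraries was added after seeing the data for the counts of groups that do not overlap and for the summed levels.

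The members and lists were chosen with earlier results of these data known, and no test was made over a list. Named by rule were the 3 members of complexes I, III, IV and V with the smallest p, all of complex II, 2 without a prefix, set core subunits and isoform partners, the highest and lowest by FPKM, and up to 3 genes of each other list by p. A gene named by this rule is not reported here. NDUFC2, NDUFS5, LHPP, SLC25A5 and the subunits given to complete a group (ATP5F1C, ATP5F1D, ATP5PF, ATP5PO, COX11, COX15, ATP5ME, ATP5MF, ATP5MG, COX5A, COX7B, PPARGC1A, GABPA) were chosen after their values were seen. Proteins were not analysed here.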

Additional observations from a re-analysis of the deposited data

How the results depend on the processing

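The signs of the medians depended on the scaling of the libraries, and library size alone shifted the median of all genes from 0.012 to -0.12 on the log2 scale. With library size alone the median log2 fold change was -0.057 over the 88 genes, -0.063 for complex I, -0.093 for II, -0.049 for III, -0.083 for IV and -0.0080 for V. With that setting 6 of the 88 lay above and 15 below the Control range, against 7.35% and 25.2% of all genes. Under that setting the values of 15 of the 88 genes given in the text were negative where they had been positive. ATP5PF stood at -0.041 and ATP5PO at -0.058, and those named by rule, 13 in all, were SDHB -0.069, SDHD -0.12, NDUFS1 -0.056, NDUFV1 -0.063, UQCRFS1 -0.049, COX4I1 -0.033, COX5B -0.017, ATP5F1A -0.0080, COX6A1 -0.057, COX6B1 -0.031, ATP5MC1 -0.068, ATP5MC2 -0.094 and ATP5MC3 -0.098. limma on log2(FPKM + 1) gave medians of -0.055 over the 88 genes, -0.071 for complex I, -0.095 for II, -0.047 for III, -0.083 for IV and -0.0096 for V. Those 13 genes stood at -0.068, -0.12, -0.052, -0.071, -0.047, -0.035, -0.034, -0.0096, -0.058, -0.034, -0.071, -0.096 and -0.096. With log2(FPKM + 0.1) the medians were -0.058, -0.072, -0.097, -0.049, -0.085 and -0.0098, and the 13 genes stood at -0.069, -0.13, -0.057, -0.072, -0.049, -0.035, -0.035, -0.0098, -0.058, -0.034, -0.072, -0.098 and -0.098. Upper-quartile scaling put 16 of the 88 genes above the Control range, against 25 with TMM, and the share of all genes under it is not given here. That scaling gave medians of 0.028 over the 88 genes, 0.020 for complex I, -0.0082 for II, 0.037 for III and 0.077 for V, and SDHD at -0.033, ATP5MC2 at -0.011 and ATP5MC3 at -0.012. After cyclic loess the medians were 0.017, 0.017, -0.012, 0.037 and 0.035 in the same order, and SDHB stood at -0.0041, SDHD at -0.020, NDUFS1 at -0.00026, NDUFV1 at -0.017, ATP5F1A at -0.048, COX6A1 at -0.013, ATP5MC2 at -0.071 and ATP5MC3 at -0.021. Summed in TMM-scaled CPM in place of FPKM, the ratio of treated to Control was 1.04 for complex I, 1.07 for III, 1.03 for IV and 1.12 for V.

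DESeq2 called 2 of the 88 genes at an adjusted p under 0.05, and edgeR called 0, or 1 with rhChem157S replicate 3 left out. Over all genes the calls ran from 4 on all libraries to 5 with library size alone, 0 with upper-quartile scaling, 17 without a filter, 1319 with DESeq2, 179 and 23 with limma on FPKM at the larger and the smaller pseudocount, 9 after cyclic loess, and 0 to 844 with 1 library left out. Leaving out 1 library at a time, the median over the 88 genes ran from 0.044 to 0.093, the members called from 0 to 1 and the genes below the Control range from 5 to 18. The 18 were reached without rhChem157S replicate 1, where 25.4% of all genes lay below it. Values that changed sign ran from -0.076 to 0.098 for SDHD, -0.10 to 0.049 for COX7A2, -0.023 to 0.089 for ATP5MC2, -0.036 to 0.12 for NDUFV1, -0.0043 to 0.11 for SDHB and -0.016 to 0.088 for ATP5MC3. Whether the replicate numbers of the labels pair the libraries was not settled. Same-numbered libraries correlated in their deviations at 0.241, 0.00147 and 0.247, and differently numbered ones at -0.306 to 0.106. With the replicate block the members called stayed at 0, their median was 0.072, and the calls over all genes went from 4 to 1. At an unadjusted edgeR p under 0.05, 10 members were higher and 1 lower with the block. Without it 11 were higher and 2 lower, against 11.4% of all genes in each direction. The share of all genes with the block is not given here, so these counts show no shift of the members.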
